A study of Rattus norvegicus with 10 samples.

Results

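IGHV5-22 is a variable gene of the rat immunoglobulin heavy chain locus, and its reads were taken here from splenocytes of 10 immunized Wistar rats. Its members are the productive reads in which IGHV5-22 is the first gene named in the assignment of the variable gene. There were 118768 such reads among 1615896 productive reads (7.35%), and they held 20207 distinct CDR3 amino acid sequences. In the HuD group, 5 animals received recombinant human HuD, a neuronal RNA-binding protein that is also an onconeural antigen. In the DNP group, 5 animals received keyhole limpet hemocyanin (KLH), a carrier protein, with dinitrophenyl (DNP) residues attached, so that the hapten and the carrier cannot be told apart. Both groups had a first immunization in Freund's complete adjuvant and 3 boosts in the incomplete form, and no unimmunized animals were analysed here. Each animal gave 1 library, so p-values measure only the spread between these animals. The files hold heavy chain variable domains only, so the markers of the splenocytes themselves could not be checked.

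A heavy chain variable domain is assembled by joining a variable (IGHV), a diversity (IGHD) and a joining (IGHJ) gene. The IGHV gene encodes framework regions FR1 to FR3 and the complementarity-determining regions CDR1 and CDR2, while CDR3 spans the junction and is the most diverse part of the domain. After contact with antigen, B cells multiply as clones and acquire somatic mutations, so that the reads of 1 gene can come from a few expanded clones or from many small ones. Whether animals that receive the same antigen share such sequences was the question behind the design.

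The study's reads were collapsed on a molecular tag, and each collapsed read counts once here. A library held 60647 to 259834 productive reads, and DNP3 was the shallowest. DNP2 stood apart from the other DNP animals in several of the measures that follow, and some tags occurred in several libraries, so both are taken up beside the results they touch. IGHV5-22 made up 5.02%, 4.58%, 11.5%, 3.37% and 4.41% of productive reads in HuD1 to HuD5, against 8.64%, 2.93%, 37.7%, 8.63% and 5.40% in DNP1 to DNP5. The groups overlapped, and DNP3 and HuD3 stood above the other animals of their group. By number of reads the gene ranked 7, 9, 4, 8 and 8 among the IGHV genes of HuD1 to HuD5 and 4, 9, 1, 2 and 8 in DNP1 to DNP5. The 95% Wilson interval of the share was at most 0.386 percentage points wide to either side, and it covers counting error only. The gene was selected on its uneven share of reads in these animals, so the shares are a description without a test. In RNA from whole splenocyte suspensions, more cells with the gene and more RNA per cell cannot be told apart.

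Within the gene, 2 sets of linked residues, A and B, were seen. Set A was read in every animal, and set B almost only in 4 DNP animals. Positions are IMGT numbers, a numbering common to all variable domains, and in a substitution the first letter is the residue of set A and the second that of set B. The consensus sequences of the sets differed at 5 positions, K47T, S55Y, E59D, S63G and T99M. A read was placed in a set when it carried that set's residue at no fewer than 3 of the 4 positions 47, 55, 63 and 99. The sets were defined after the residues had been seen, so their distribution is a description without a test. The deposited files give no germline sequence, and the origin of the sets was not tested. The consensus stretches that hold these positions are shown with the differing residues inside them, first the end of FR2 (positions 45 to 55), then CDR2 (56 to 65), then the end of FR3 (from position 96).
in set A, end of FR2: APKKGLEWVAS
in set B, end of FR2: APTKGLEWVAY
in set A, CDR2: ISYEGSST
in set B, CDR2: ISYDGGST
in set A, end of FR3: SEDTATYYC
in set B, end of FR3: SEDMATYYC
CDR1 was GFTFSDYY in the consensus of both sets.

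Set B was found almost wholly in 4 of the 5 DNP animals. It had 0, 1, 5, 1 and 1 reads in HuD1 to HuD5, against 6314, 4, 21313, 11709 and 2598 reads in DNP1 to DNP5. No HuD animal exceeded 0.0258% of its IGHV5-22 reads, and the 0 in HuD1 allows a share of up to 0.0383%. In DNP1, DNP3, DNP4 and DNP5 the share was 52.4%, 93.2%, 52.2% and 52.5%, whereas DNP2 had 0.110%, far below the other DNP animals. Set A accounted for 70.6%, 91.2%, 93.1%, 80.5% and 86.4% of IGHV5-22 reads in HuD1 to HuD5, against 20.9%, 90.0%, 2.23%, 30.2% and 38.3% in DNP1 to DNP5. Reads in neither set made up 4.52% to 29.4%, with the most in HuD1. Set B was not the product of 1 clone, since it comprised 591, 1148, 1182 and 382 clones in DNP1, DNP3, DNP4 and DNP5, and each of the 4 IGHJ genes occurred with it in all 4 animals. A clone is here a CDR3 amino acid sequence with its IGHJ gene within 1 animal. Sequences that differ at 1 residue count as separate clones, so these are not numbers of independent rearrangements. With each clone placed in the set most frequent among its reads, set B held 35.2%, 81.7%, 29.9% and 33.6% of clones in DNP1, DNP3, DNP4 and DNP5. Set A held 41.3%, 9.96%, 53.7% and 58.8%, so by clones it was the larger set in DNP1, DNP4 and DNP5. Reads that rest on a single sequenced copy made up 69.9%, 68.9%, 78.5% and 82.6% of IGHV5-22 reads in DNP1, DNP3, DNP4 and DNP5.

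**Figure D1:**
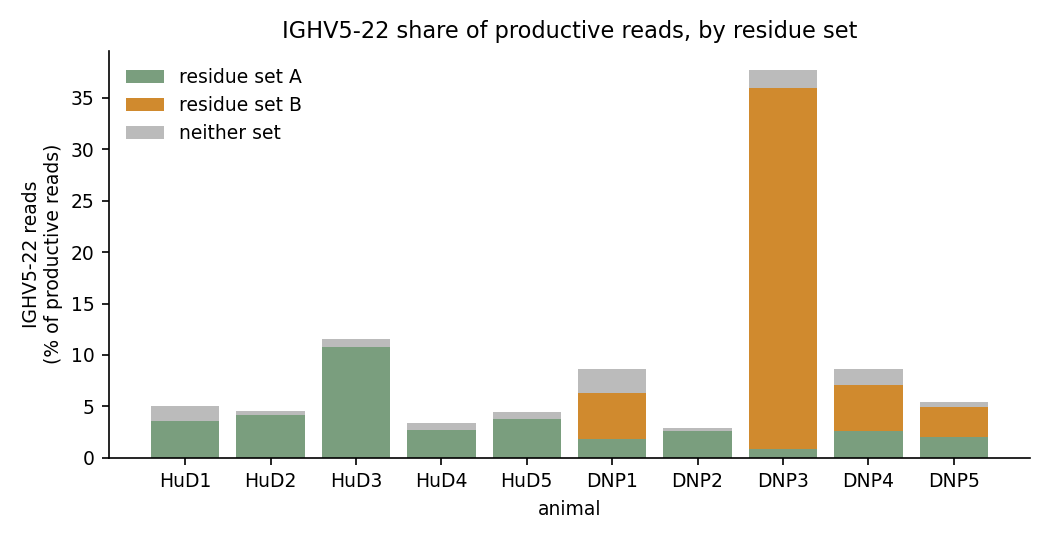
Share of productive reads assigned to IGHV5-22 in each animal (bar height, %), divided by residue set. Set B reached 35.1% of productive reads in DNP3 and 4.53%, 4.51% and 2.83% in DNP1, DNP4 and DNP5, and is too small to see in DNP2 and the 5 HuD animals.

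When set B reads were set aside, the usage of IGHV5-22 was less uneven among the DNP animals and almost unchanged in the HuD animals. Set B held 93.2% of the reads of the gene in DNP3, so this follows from its removal and is a description. The remaining reads were 5.02%, 4.58%, 11.5%, 3.37% and 4.41% of productive reads in HuD1 to HuD5, against 4.11%, 2.93%, 2.54%, 4.12% and 2.56% in DNP1 to DNP5. With set B left out of the productive reads as well, the DNP animals had 4.31%, 2.93%, 3.92%, 4.32% and 2.64% (DNP1 to DNP5), so that DNP3 lay within the range of the other animals. Of the 12 set B reads outside DNP1, DNP3, DNP4 and DNP5, 5 had an IGHJ and CDR3 found in set B of those animals, and 2 had a tag found there.

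Part of the set B sequences was assigned to another gene. Reads assigned to IGHV5-20 that met the set B definition numbered 95, 81, 59, 149 and 107 in HuD1 to HuD5, against 3314, 54, 5248, 6108 and 883 in DNP1 to DNP5. As a share of the IGHV5-20 reads of the animal, this was 0.542% to 0.977% in the HuD animals, 1.04% in DNP2 and 14.6% to 78.1% in the other DNP animals. Of these reads, 54.0%, 72.0%, 60.3% and 37.6% in DNP1, DNP3, DNP4 and DNP5 had the same IGHJ and CDR3 as an IGHV5-22 read of set B in the same animal. The border between both genes therefore ran through clones, and the set B counts of IGHV5-22 alone do not hold every such read. Among all IGHV5-22 reads, 8.14% named further genes beside it, mostly IGHV5-7 (5366 reads), IGHV5-25 (2719 reads) and IGHV5-27 (1584 reads). This share was 7.41% in set A, 1.44% in set B and 28.5% in reads of neither set.

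The 10 positions at which reads most often differed from the commonest residue included the 5 that separate the sets. Here the first letter is the residue most frequent in IGHV5-22 with each animal weighted equally. The share of differing reads was 46.9% for E59D, 44.7% for S63G, 44.0% for S64N, 41.6% for K47T, 38.1% for S55Y, 31.7% for S57R, 29.4% for T99M, 24.7% for L19M, 20.4% for D36N and 18.0% for N92D, where the second letter names the commonest alternative. Positions 57, 59, 63 and 64 lie in CDR2 and position 36 in CDR1, regions that take part in antigen contact. Methionine at position 99, in FR3, was carried by 0.0893%, 0.0292%, 0.0826%, 0.113% and 0.295% of reads in HuD1 to HuD5, against 73.1%, 0.165%, 89.1%, 61.3% and 55.5% in DNP1 to DNP5. No HuD animal came near DNP1, DNP3, DNP4 or DNP5, and DNP2 lay within the HuD range. Methionine at position 19, in FR1, showed the opposite distribution, with 59.98%, 27%, 14.7%, 42.0% and 38.3% in HuD1 to HuD5, against 4.07%, 38.3%, 0.648%, 7.92% and 3.48% in DNP1 to DNP5. Threonine at position 47 was less clear-cut, since 30.8% of the reads of HuD1 and 10.4% to 15.8% of those of the other HuD animals carried it without the rest of set B.

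**Figure D2:**
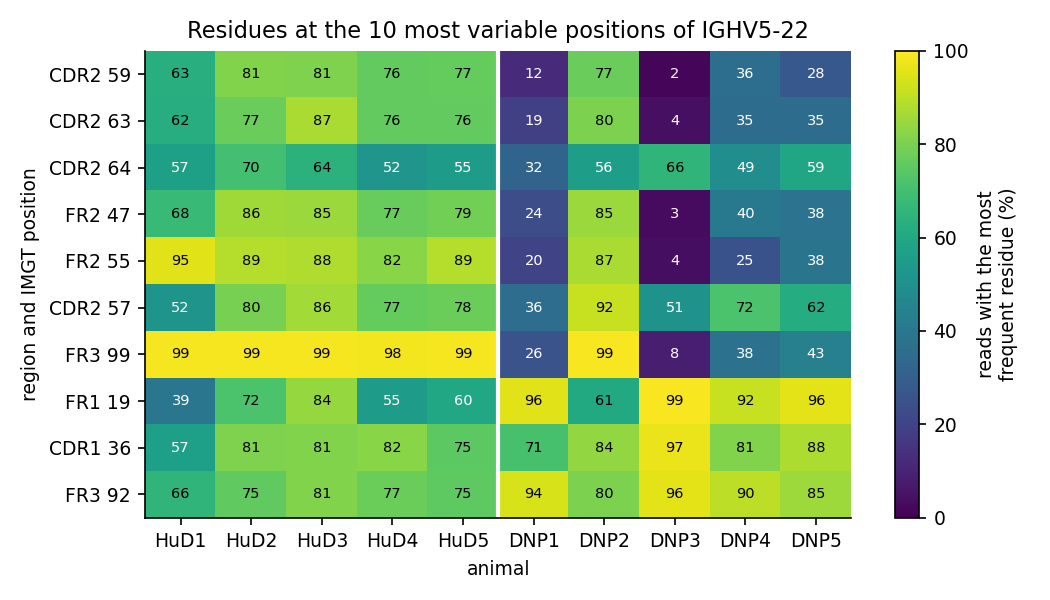
Share of IGHV5-22 reads (%, colour and number) with the most frequent residue at the 10 most variable positions (rows, region and IMGT position) in each animal (columns). At FR3 position 99 DNP1, DNP3, DNP4 and DNP5 lie between 8 and 43%, while DNP2 and the HuD animals lie at 98 or 99%.

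The peptide SEDMATYYCVR joins the end of FR3 of set B to a CDR3 that begins with valine and arginine. The paper lists its reads in these animals and reports it as elevated in DNP immune sera by proteomics, so it was not first seen here. The paper's read counts are higher than those given here in most animals, most of all in DNP1. Both counts are thus not the same measure, and why they differ was not tested. The peptide was frequent in the same animals as set B. The peptide contains the FR3 methionine by which set B is partly defined, so within IGHV5-22 the peptide is not independent of that set. Among IGHV5-22 reads it occurred in 0, 0, 1, 2 and 12 reads of HuD1 to HuD5, against 3974, 2, 3212, 1624 and 807 reads of DNP1 to DNP5. Over all IGHV genes it occurred in 3, 1, 7, 35 and 571 reads of HuD1 to HuD5, against 4597, 4, 3643, 3499 and 1178 reads of DNP1 to DNP5. The gene supplied 9634 of the 13538 reads with this peptide (71.2%). In HuD5 only 2.10% of them were IGHV5-22, so the peptide of that animal belonged almost entirely to other genes.

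The reads of the gene were concentrated in few CDR3 sequences in some animals and spread in others. The CDR3 with most reads held 23.0%, 3.45%, 3.24%, 17.2% and 6.22% of IGHV5-22 reads in HuD1 to HuD5, against 28.2%, 9.47%, 12.7%, 6.53% and 7.06% in DNP1 to DNP5. The 10 leading CDR3 together held 56.3%, 19.7%, 19.4%, 36.1% and 22.03% in HuD1 to HuD5, against 50.7%, 27.1%, 51.6%, 27.5% and 29.1% in DNP1 to DNP5. HuD1, DNP1 and DNP3 were the most concentrated by the 10 leading CDR3, whereas by the leading CDR3 alone HuD4 exceeded DNP3, and the groups overlapped. Counted by sequenced copies, these same leading CDR3 held 44.6%, 3.83%, 4.44%, 26.4% and 9.55% of the gene in HuD1 to HuD5, against 80.4%, 10.4%, 31.2%, 18.2% and 10.5% in DNP1 to DNP5. The last 6 bases of the tag took 4096 values over all reads and 2426 values within the leading CDR3 of DNP1, so the reads of the most abundant CDR3 may undercount their molecules. The effective number of CDR3, the number of equally frequent sequences that would give the same chance of drawing 1 sequence on both of a pair of draws, was 12.6, 160, 157, 26.7 and 117 in HuD1 to HuD5, against 11.2, 69.2, 23.9, 83.9 and 65.6 in DNP1 to DNP5.

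The high read share of DNP3 came with many reads per clone and with a high share of the clones of that animal, not with a high number of clones. The gene had 1300, 2985, 3153, 1810 and 2527 clones in HuD1 to HuD5, against 1679, 1338, 1405, 3953 and 1137 in DNP1 to DNP5. It made up 14.2% of all clones of DNP3 and 3.58% to 9.07% of those of the other animals. A clone of IGHV5-22 had a mean of 16.3 reads in DNP3, where clones of the other genes had 4.47. In the other 9 animals the mean was 2.72 to 7.18 reads for IGHV5-22. Clones with a single read made up 61.8% to 77.1% of the clones of the gene. Before collapsing, a read of IGHV5-22 stood for a mean of 1.72, 1.22, 1.26, 1.41 and 1.19 sequenced copies in HuD1 to HuD5, against 4.66, 1.16, 2.51, 1.55 and 1.31 in DNP1 to DNP5. Counted by copies in place of reads, the gene held 55.8% of DNP3 and 22.6% of DNP1.

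**Figure D3:**
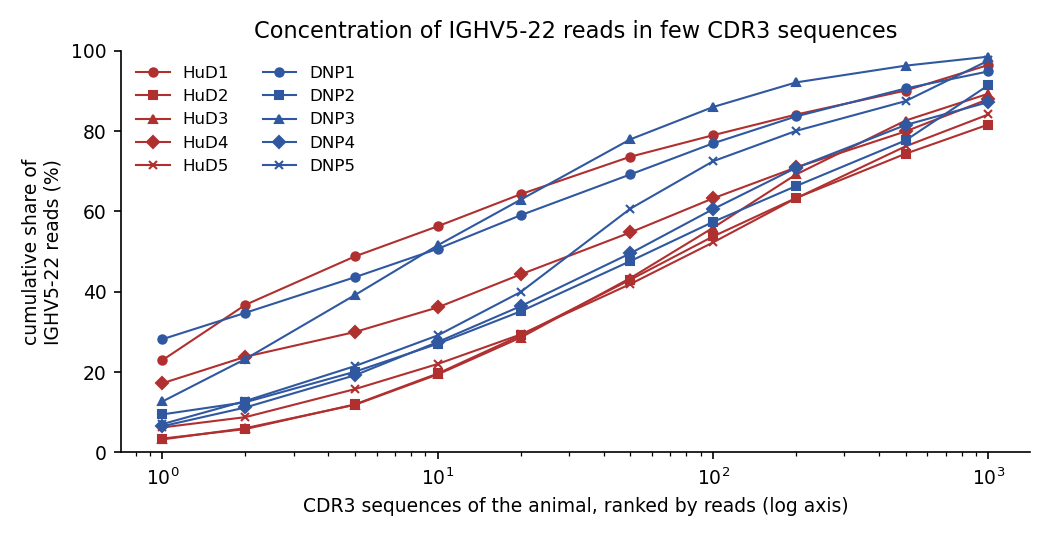
Cumulative share of IGHV5-22 reads (%) held by the CDR3 sequences of each animal, ranked by reads on a log axis (HuD red, DNP blue). The 10 leading CDR3 held 56.3%, 51.6% and 50.7% in HuD1, DNP3 and DNP1 and 19.4% to 36.1% in the other animals.

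The leading CDR3 sequences are given because they carry the expansion. In the HuD animals the CDR3 with most reads were the following.
in HuD1, 1802 reads: ATEDYGLTGFAY
in HuD2, 355 reads: ARTTYDYFDY
in HuD3, 628 reads: ARPGITSYVMDA
in HuD4, 1070 reads: ARQRGPSWFAY
in HuD5, 569 reads: ARFYDGYYHRFDY
Among IGHV5-22 reads none of the 5 occurred in another animal. Those of HuD1 and HuD4 were joined to IGHJ3, that of HuD3 to IGHJ4 and the others to IGHJ2. Of the reads with the CDR3 of HuD1, 2.50% fell in set A and 0% in set B, so this 1 sequence supplied much of the share of HuD1 outside both sets. The CDR3 second in reads were ARPHSSHYVMDA in HuD3 (543 reads, IGHJ4), TRPPYNNHFDY in HuD4 (409 reads, IGHJ2), ARHMPPTSYVMDA in HuD5 (234 reads, IGHJ4), and CDR3 of 15 and 16 residues with IGHJ2 in HuD1 (1079 reads) and HuD2 (243 reads).

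In the DNP animals the CDR3 with most reads were all joined to IGHJ2.
in DNP1, 3397 reads: VRWNSGHFDY
in DNP2, 344 reads: ARLGGD
in DNP3, 2900 reads: ARHVLPLRVWDY
in DNP4, 1464 reads: ARYSLIKRMWDY
in DNP5, 349 reads: VRWYNSGYYFDY
Among IGHV5-22 reads, VRWNSGHFDY occurred in no other animal. ARLGGD had 1 read in HuD2, ARHVLPLRVWDY 12 in DNP4, ARYSLIKRMWDY 1 in DNP3, and VRWYNSGYYFDY 946 in DNP3 and 1 in DNP4. Set B supplied 55.4%, 96.6%, 82.7% and 95.1% of the reads of the leading CDR3 in DNP1, DNP3, DNP4 and DNP5, and 0% in DNP2. The sequence of DNP1 stood for a mean of 13.3 copies per read, the most among the leading sequences. The CDR3 second in reads were IRWNSGHFDY in DNP1 (791 reads), ARWYNSGYYFDY in DNP3 (2415 reads), ARHGRRVFDY in DNP4 (1046 reads) and ARWYSSGFCFDY in DNP5 (284 reads), all with IGHJ2, and in DNP2 a CDR3 of 18 residues with IGHJ1 (110 reads).

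Several of the leading CDR3 of the DNP animals resembled each other without being identical. They shared, after the first residue, arginine and tryptophan, an optional further residue, asparagine or serine, and then serine and glycine. This pattern was described after the sequences had been seen and is not tested. It occurred in 0, 0, 1, 0 and 3 IGHV5-22 reads of HuD1 to HuD5, against 4666, 4, 5892, 485 and 1410 reads of DNP1 to DNP5. That was 38.7%, 25.8%, 2.16% and 28.5% of the reads of the gene in DNP1, DNP3, DNP4 and DNP5. Over all IGHV genes the pattern occurred in 1, 50, 8, 4 and 125 reads of HuD1 to HuD5, against 5383, 35, 6416, 836 and 1908 reads of DNP1 to DNP5. IGHV5-22 supplied 86.7%, 91.8%, 58.0% and 73.9% of these in DNP1, DNP3, DNP4 and DNP5, and 2.40% in HuD5. The 12461 IGHV5-22 reads with the pattern comprised 219 distinct CDR3, and 83.9% were set B and 93.7% were joined to IGHJ2. These pooled values follow DNP1 and DNP3, since set B supplied 62.9%, 98.7%, 80.0% and 93.5% of the reads with the pattern in DNP1, DNP3, DNP4 and DNP5, and IGHJ2 99.4%, 99.2%, 3.09% and 83.1%. DNP4 thus went the other way for IGHJ2. IGHD4-3 was the assigned diversity gene in 0.0214%, 99.3%, 5.77% and 56.03% of these reads in DNP1, DNP3, DNP4 and DNP5, so that it was frequent in DNP3 and DNP5 only. Over all IGHV5-22 reads with the pattern it was 53.6%, and without DNP3 12.5%. Among all IGHV5-22 reads it was 10.7%. That share includes DNP3 and the reads with the pattern, so it is not a background for either value. The CDR3 with the pattern differed between animals, as VRWNSGHFDY, IRWNSGHFDY and VRWSSGHFDY were read in DNP1 only, ARWYNSGYYFDY and VRWYNSGYYFDY mainly in DNP3 and DNP5, ARWFNSGYYFDY almost only in DNP3 (1041 of 1043 reads), and ARWNSGYYAMDA (345 reads) in DNP4 only.

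The joining genes were compared over clones, because the expansion of single clones sets the reads. IGHJ2 was joined to 50.4%, 54.1%, 43.5%, 55.03% and 47.4% of IGHV5-22 clones in HuD1 to HuD5, against 54.5%, 47.3%, 60.3%, 50.1% and 55.1% in DNP1 to DNP5. The difference, HuD minus DNP, was -3.37 percentage points and did not exceed the spread between animals (2-sided exact permutation test, p = 0.325, adjusted p = 0.794 over 4 genes). With each read counted once it was -17.5 points (exact permutation test, p = 0.0476, adjusted p = 0.190), with at least 2 copies -10.3 points and with clones merged at 1 residue -0.0250 points, none of which passed. IGHJ3 had 23.9 ± 2.04% in HuD and 21.4 ± 6.00% in DNP, IGHJ4 had 14.7 ± 5.41% in HuD and 13.9 ± 4.55% in DNP, and IGHJ1 had 11.3 ± 1.22% in HuD and 11.2 ± 2.35% in DNP (SD, n = 5 each). None of the 4 genes passed the test between HuD and DNP, with adjusted exact p-values of 0.794 to 0.944. The widest spread was that of IGHJ3 in DNP animals, where DNP2 had 31.2% and DNP5 15.5%.

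IGHJ pairing was also set against that of the other IGHV genes in the same animals. IGHJ1 was joined to 11.3 ± 1.77% of IGHV5-22 clones and 9.89 ± 0.828% of clones of other genes (SD, n = 10), a difference of 1.38 points that was positive in 8 of 10 animals. It did not pass the exact sign-flip permutation test after adjustment (p = 0.0332, adjusted p = 0.133). IGHJ2 was joined to 51.8% of clones of IGHV5-22 and 51.8% of clones of the other genes, with a mean difference of 0.0109 points (exact sign-flip permutation test, adjusted p = 0.990). For IGHJ2 the difference was negative in all 5 HuD animals and positive in 4 of 5 DNP animals, the exception being DNP2, and for IGHJ4 it was negative in all 5 DNP animals; whether these differences themselves differed between HuD and DNP was not tested. The differences for IGHJ3 and IGHJ4 were -0.839 and -0.548 points, and neither passed the same test (adjusted exact p = 0.805 for both).

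CDR3 length varied little. The mean over clones was 12.2 ± 0.233 residues in HuD and 12.1 ± 0.334 residues in DNP (SD, n = 5 each), a difference of 0.0843 residues that lay within the spread between animals (2-sided exact permutation test, p = 0.651). Compared with the other genes of the same animals, CDR3 of IGHV5-22 were 0.0922 residues longer in the mean, in 8 of 10 animals, which did not pass the exact sign-flip permutation test (p = 0.0703).

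Clones of IGHV5-22 in HuD animals differed less from the commonest residues of the gene than those in DNP animals. Over 96 positions of FR1 to FR3, clones differed at 5.18%, 4.65%, 4.31%, 5.25% and 6.26% of positions in HuD1 to HuD5, against 8.81%, 5.22%, 9.63%, 7.69% and 6.60% in DNP1 to DNP5. Only DNP2 lay within the HuD range. The means were 5.13 ± 0.742% in HuD and 7.59 ± 1.75% in DNP (SD, n = 5 each), and the difference of -2.46 points passed the 2-sided exact permutation test (p = 0.0238). Without DNP2 it was -3.05 points. The measure counts the residues of set B as differences, so it moves with the share of set B. Without the 5 positions that separate the sets, the difference was -0.528 points (exact permutation test, p = 0.238). Within set A alone, with all 96 positions, the means were 4.51 ± 0.573% in HuD and 5.55 ± 0.583% in DNP, and the difference of -1.04 points passed the test (exact p = 0.0317). Both of these comparisons were chosen after the data had been seen.

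Each set was also compared with its own consensus. Clones of set B differed from it at 5.34%, 5.05%, 4.80% and 3.26% of positions in DNP1, DNP3, DNP4 and DNP5, and clones of set A at 3.96% to 5.47% in HuD animals and at 4.66% to 6.08% in DNP animals. Reads identical to the consensus of set B over FR1 to FR3 made up 2.04%, 7.86%, 4.32% and 9.97% of set B in DNP1, DNP3, DNP4 and DNP5. For set A the share was 3.49% to 9.42%. Reads without any difference from the consensus were therefore a minority of both sets in every animal that had them in number.

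The differences were concentrated in the complementarity-determining regions. In CDR1 and CDR2 together (16 positions), clones differed at 11.9%, 9.89%, 9.32%, 11.3% and 15.2% of positions in HuD1 to HuD5 and at 25.3%, 11.4%, 22.6%, 17.9% and 15.5% in DNP1 to DNP5. In FR1 to FR3 (80 positions) they differed at 3.83%, 3.61%, 3.30%, 4.04% and 4.48% in HuD1 to HuD5 and at 5.52%, 3.98%, 7.04%, 5.65% and 4.82% in DNP1 to DNP5. CDR1 and CDR2 were higher in 10 of 10 animals, by a mean of 10.4 points (exact sign-flip permutation test, p = 0.00195, the smallest p that 10 animals allow). Without the 5 positions that separate the sets the mean difference was 8.06 points, with the same p.

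**Figure D4:**
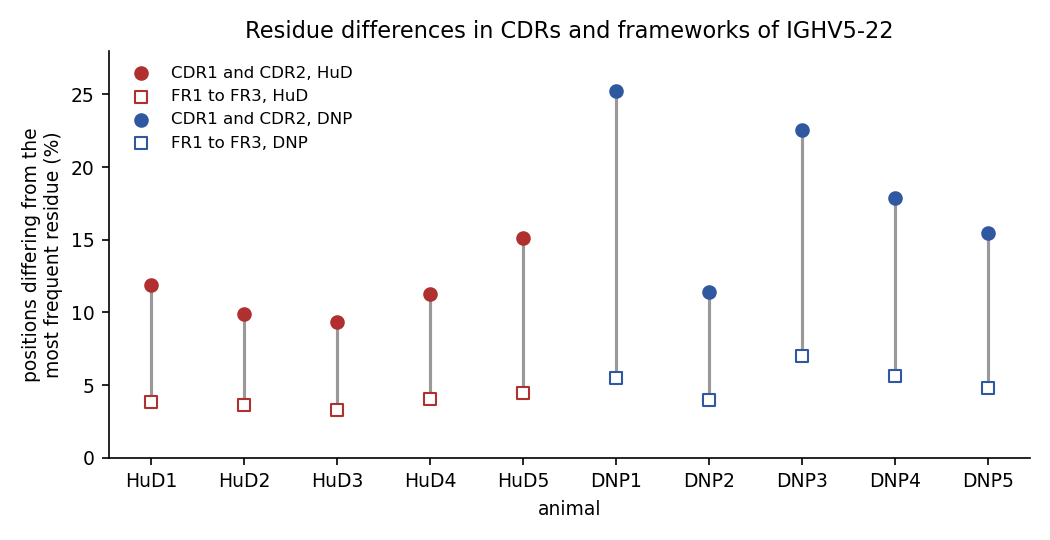
Share of positions (%) at which IGHV5-22 clones differed from the most frequent residue of the gene, in CDR1 and CDR2 (filled circles) and in FR1 to FR3 (open squares), for each animal, with the grey line joining both values. The circle lies above the square in 10 of 10 animals, and DNP2 lies at 11.4% and 3.98%, within the HuD range.

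CDR3 sharing was low. Of the 20207 distinct CDR3 of IGHV5-22, 19908 were read in 1 animal and 299 (1.48%) in several, and the shared sequences held 21.2% of the reads. That share includes CDR3 abundant in 1 animal with few reads in another. Examples are ARHVLPLRVWDY (2900 reads in DNP3, 12 in DNP4) and ARYSLIKRMWDY (1464 in DNP4, 1 in DNP3). Of the 299, 243 were read in exactly 2 animals, 41 in 3, 8 in 4 and 7 in 5, and none in more than 5. There were 102 shared among HuD animals only, 112 among DNP animals only and 85 by animals of both groups. Shared CDR3 were shorter, with a mean of 9.92 residues compared with 12.3 residues for those of 1 animal, which is given without a test.

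Animals of the same antigen had more CDR3 in common than animals of different antigens. The overlap of a pair of animals is the number of common CDR3 as a percentage of the geometric mean of both numbers of distinct CDR3. Its median was 0.877% over the 10 HuD pairs (0.601% to 1.06%), 0.708% over the 10 DNP pairs (0.269% to 2.67%) and 0.222% over the 25 mixed pairs (0% to 0.850%). Pairs of the same antigen exceeded mixed pairs by a mean of 0.638 points (1-sided exact permutation test, p = 0.00794, the smallest p it can give). DNP3 and DNP4 had the most CDR3 in common (60), and HuD pairs had 13 to 27. DNP2 had 5 to 17 CDR3 in common with a HuD animal and 4 to 13 with another DNP animal. The difference ranged from 0.463 points without DNP3 to 0.828 points without DNP2 when 1 animal was left out, and within set A alone, chosen after the data had been seen, it was 0.419 points (exact p = 0.00794).

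**Figure D5:**
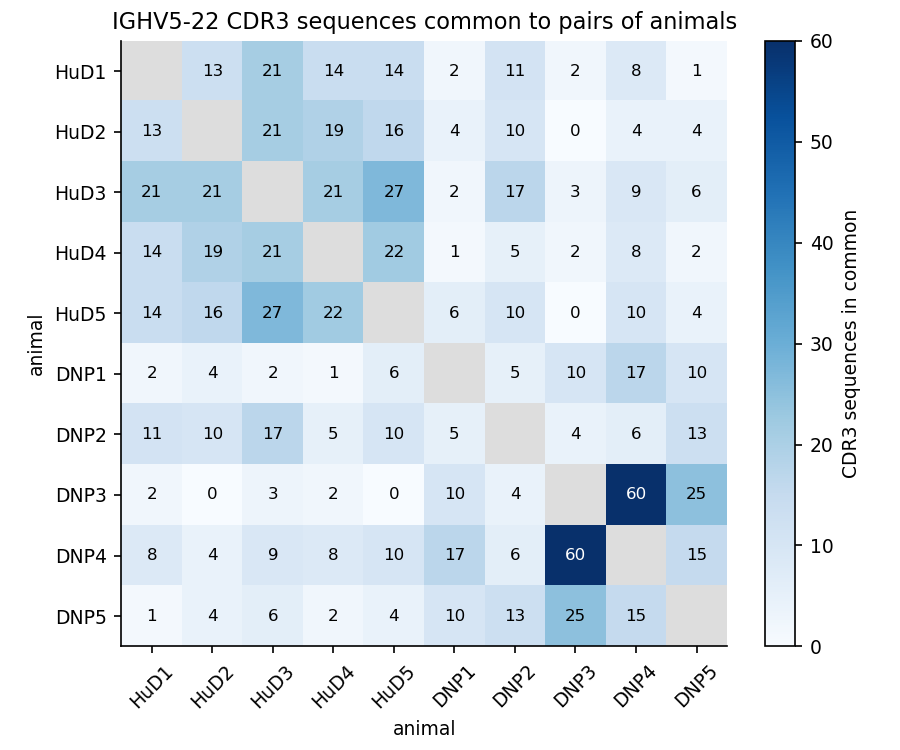
Number of CDR3 sequences of IGHV5-22 common to each pair of animals (colour and number, rows and columns are animals). HuD pairs had 13 to 27 in common, DNP3 and DNP4 had 60, and mixed pairs had 0 to 17, the largest of these being HuD3 with DNP2.

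The CDR3 found in most animals were short or of low abundance, and they are shown because they are the ones that crossed animals. Those in 5 animals, with their number of reads, were the following.
in DNP animals only, 113 reads: ARPDY
in both groups, 57 reads: ARHVDY
in both groups, 32 reads: TRENWVFDY
in HuD animals only, 14 reads: ARHNSGYGVMDA
in HuD animals only, 6 reads: ARHNSGYFDY
in both groups, 6 reads: ARRGDYFDY
in both groups, 6 reads: TRKYTTDYYWYFDF
ARPDY was read 66, 1, 17, 24 and 5 times in DNP1 to DNP5 and in no HuD animal. ARHNSGYGVMDA was read 1, 3, 1, 4 and 5 times in HuD1 to HuD5 and in no DNP animal. ARWYNSGYYFDY, in 4 animals, was read once in HuD3, against 2415 and 6 times in DNP3 and DNP4 and in 2.55% of the IGHV5-22 reads of DNP5, and it was thus the most abundant CDR3 among those in more than 3 animals. The others in 4 animals named here were ARLDY (110 reads, of which 106 in DNP2) and TRENWVLDY (13 reads). Of the shared CDR3, 90 had 2 or more reads in each of the animals that had them, and the rest included animals with a single read.

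Libraries shared some tags, which bears on the counts of shared CDR3. A tag was 22 bases long, and with the few values its last 6 bases can take, different molecules of an abundant CDR3 can carry the same tag. Of 118631 combinations of tag and CDR3 among IGHV5-22 reads, 137 occurred in several animals, of which 112 were in DNP3 and DNP5 and 21 in DNP3 and DNP4. In DNP5 they comprised 82 reads of ARWYNSGYYFDY (65.1% of its reads there) and 29 of the 349 reads of VRWYNSGYYFDY. The residues of FR1 to FR3 were identical in both animals for 15 of the 137. Without these 274 reads the difference in overlap between pairs of the same and of different antigens was 0.622 points (1-sided exact permutation test, p = 0.00794). Whether the shared combinations came from transfer between libraries was not tested. The paper looked for such transfer and reports no read whose sequence and tag recurred in another sample. The combinations counted here hold the tag and amino acid residues, so both checks need not be alike.

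The other genes of the family and the genes with like usage give the context. Of 81 IGHV genes with at least 100 reads, 2 (2.47%) passed the edgeR quasi-likelihood test between HuD and DNP at an adjusted p of 0.05, both lower in HuD. The split of the calls turned with the method, with 9 genes higher and 5 lower in HuD by DESeq2 and 13 higher and 3 lower by limma. Of the 23 other IGHV5 genes tested, 1 passed and was lower in HuD, and their median log2 fold change was 0.12, beside 0.13 over all genes. IGHV5S11 had 0.0670 ± 0.0143% of productive reads in HuD and 1.67 ± 1.35% in DNP (SD, n = 5 each), with a log2 fold change of -4.68 (edgeR adjusted p = 0.0237). DNP2 did not share in the higher DNP usage. It had 68 reads of IGHV5S11, against 5298, 978, 3434 and 1421 in DNP1, DNP3, DNP4 and DNP5 and 100 to 140 in the HuD animals. Some IGHV5 genes that did not pass were split along the same animals. IGHV5-35, IGHV5-36, IGHV5-43 and IGHV5-54 had 0 reads in DNP1, DNP3, DNP4 and DNP5, the animals with set B. They had 29 to 606 reads in DNP2 and 28 to 1025 in the HuD animals. Most other IGHV5 genes tested were read in every animal. Whether the animals differed in their germline genes was not tested. The number of calls changed when 1 animal was left out. It was 0 without HuD1, HuD4 or HuD5 (15 to 16 at an unadjusted p of 0.05, 19 with all animals). The log2 fold change of IGHV5S11 moved little without these animals (-4.58, -4.65 and -4.66), although its call was lost. Without DNP2, 30 genes passed, of which 19 were higher and 11 lower in HuD. The genes whose usage was most like that of IGHV5-22 over the 10 animals, by Pearson correlation of log2(RPM + 10), where RPM are reads scaled to the same total in each library, were IGHV2-6 (r = 0.74), IGHV8-20 (r = 0.70) and IGHV10-4 (r = 0.67). All 3 had their highest share in DNP3, at 4.70%, 0.0445% and 1.38% of productive reads, and the correlations are a description over libraries that share this animal. IGHV8-20 was rare, with 1 to 33 reads in an animal and 27 in DNP3.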

How the data were processed

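The deposited files list, for each of 10 animals, heavy chain variable domains with their IMGT-gapped amino acid sequences, gene assignments, tag and copy number. The authors reverse transcribed splenocyte RNA with constant region primers that carried a molecular tag, sequenced it in 1 run, merged pairs with PEAR, collapsed reads with MIGEC (minimum of 1 copy, 10 CDR3 bases as additional tag) and assigned genes with High-VQuest; their versions were not stated in any source that was read. The deposited copy number is a raw count of sequenced copies per collapsed read. Productive reads were kept and the first gene named was used, as the gene assignment does not resolve all family members. Reads per IGHV gene were tested with edgeR 4.0.16 (quasi-likelihood, genes with at least 100 reads, Benjamini-Hochberg adjustment), with DESeq2 1.42.0 and limma 3.58.1 as alternatives. Clone measures were compared between animals by exact permutation tests written with numpy 2.4.6, and the procedures were tested on simulated data. The Wilson intervals came from scipy 1.17.1. The most frequent residue, each animal weighted equally, served as reference because no germline sequence was at hand. CDR3 longer than 14 residues are described by length only. The text names the 2 CDR3 with most reads per animal, the 10 in most animals, the 10 most variable positions, the 3 IGHV genes most correlated in usage and the IGHV5 genes past the threshold. The gene, the measures and the lists were chosen with earlier results of these data known.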

Additional observations from a re-analysis of the deposited data

Results flagged for a closer look

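Within groups of 5 animals, 6 of 42 sets of values had 1 animal whose gap to its nearest neighbour was large against the range of the group, where chance flags about 1 in 20 sets. That rate does not apply to the shares of productive reads, on which the gene was selected, nor to set B and the CDR3 pattern, which were defined after they had been seen. The share of productive reads was flagged in HuD3 (11.5%, the next HuD animal 5.02%) and in DNP3 (37.7%, the next DNP animal 8.64%). DNP4 had 3953 clones of IGHV5-22, the next DNP animal 1679. The leading CDR3 of DNP1 held 28.2% of the reads of the gene, the next DNP animal 12.7%. Among HuD animals, set B made up 0.0317% of clones in HuD3 and 0% in the others, and the CDR3 pattern with arginine and tryptophan 0.0328% of reads in HuD5, the next 0.00516%; these last values rest on 1 clone and 3 reads.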

How the results depend on the processing

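The sharing result and the difference between CDR1 and CDR2 and the frameworks kept their direction and their call under every alternative run for them. Residue variation between HuD and DNP lost its call with the replicate block (-2.46 points, exact p = 0.0625, the smallest p this fit can give) and without the 5 positions that separate the residue sets (-0.528), an alternative added after the data had been seen; leaving out 1 animal gave -3.05 to -1.95. Replicate numbers do not pair the animals, since same-numbered animals are different animals and their deviations in IGHV usage correlated at -0.144 to 0.289. CDR3 length against other genes gained a call with reads that name a single gene (0.106 residues) and with clones merged at 1 residue (0.180), was -0.0236 with reads of at least 2 copies, and ranged from 0.0649 to 0.118 when 1 animal was left out, with a call without HuD4 or DNP3. IGHJ1 against other genes gained a call with merged clones (1.53 points) and ranged from 1.05 to 1.67 when 1 animal was left out, with a call without HuD3. The count of IGHV genes, 2 with edgeR, was 14 with DESeq2, 16 with limma, 13 with the replicate block (10 higher and 3 lower in HuD) and 0 to 30 when 1 animal was left out; IGHV5S11 ranged from -5.19 to -4.33 on the log2 scale and lost its call without HuD1, HuD4 or HuD5 (adjusted p = 0.102, 0.100 and 0.0589).

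Results that passed no test changed sign as follows. Between HuD and DNP, IGHJ1 was -1.62 points with each read counted once and -0.683 with equal numbers of reads (-0.556 to 0.876 when 1 animal was left out), IGHJ4 was -1.76 with merged clones and -0.552 within set A (-1.24 to 2.06), and CDR3 length was -0.0595 residues with at least 2 copies and -0.0218 within set A (-0.00222 to 0.205). Against other genes, IGHJ2 was -1.10 with at least 2 copies, -1.42 with merged clones and -1.15 within set A (-0.794 to 0.577), IGHJ3 was 0.165 with merged clones, and IGHJ4 was 0.375 with each read counted once, 1.29 with at least 2 copies and 0.271 within set A (-1.30 to 0.0386). Between HuD and DNP, IGHJ3 was 10.2 points with each read counted once and passed no test. The cause of these changes was not tested. DNP2, with 3633 reads of the gene, and DNP5 limit what can be said of rare CDR3.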
